A study of Mus musculus with 5 samples.

Results

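A joined locus is a transcribed region to which the authors' gene table gives 2 or more gene symbols in place of a single name. Such loci were found by the comma in the gene name of the deposited tables. That rule used no measured value, although joining by assembly can itself depend on reads. Joined loci made up 911 of 61082 loci. Of the others, 22894 carried 1 gene symbol and 37277 carried none. The cells were mouse embryonic fibroblasts (MEFs, connective-tissue cells grown from embryos), of C57BL/6 background and at passage 30 in every group. EV, M, P and MP came from Prep1 hypomorphic embryos, whose Prep1 allele is expressed at a reduced level: EV was infected with an empty vector, M was labelled as overexpressing Meis1, P Prep1, and MP both. WT was labelled Prep1 wild-type and wild-type cells, although the growth text shared by all samples speaks of E14.5 hypomorphic embryos. Meis1 and Prep1 (gene symbol Pknox1) are TALE homeodomain transcription factors that bind DNA together with Pbx and Hox proteins. Each group was 1 library, so differences cannot be set against replicate error, p-values were not computed, and each comparison is between 2 libraries and not between conditions.

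Transcript assemblers such as Cufflinks put transcripts of the same strand that share exon sequence into 1 locus, and the locus then receives every gene name its transcripts match. Genes that lie inside one another can also come to share a locus, as small nucleolar RNA (snoRNA) and microRNA (miRNA) genes lie in the introns of their hosts. Near-identical copies side by side, and neighbours bridged by reads that run past the end of the first gene, are joined as well. FPKM (a fragment count set relative to transcript length and to library size) of a locus is by definition the sum over its transcripts. Which of the joined genes carries a level or a difference therefore cannot be told apart from these values.

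The sequences that matter for the results below are those of mature miRNAs whose genes are read only through a joined locus, and of promoters in the joined interferon loci. Mature miRNAs pair with messenger RNAs mainly through the seed, bases 2 to 8, given here in capitals. Of 199 miRNA symbols in joined loci, 174 had a RefSeq entry (GRCm38.p6), with 300 mature sequences and 258 different seeds. The first 5 below come from 1 locus, Mir17hg, and fall into 3 seed groups, so that a change of that locus concerns several target sets at once. The 2 miR-196 sequences share a seed but lie in different joined loci, in the Hoxb and the Hoxa cluster. The other 5 belong to 3 loci whose levels differed between libraries.
miR-17-5p: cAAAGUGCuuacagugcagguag
miR-20a-5p: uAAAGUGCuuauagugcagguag
miR-18a-5p: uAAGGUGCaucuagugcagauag
miR-19a-3p: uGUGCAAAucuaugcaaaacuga
miR-19b-3p: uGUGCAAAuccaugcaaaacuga
miR-196a-5p: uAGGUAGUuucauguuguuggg
miR-196b-5p: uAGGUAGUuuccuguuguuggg
miR-23a-3p: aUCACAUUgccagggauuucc
miR-27a-3p: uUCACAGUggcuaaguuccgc
miR-24-3p: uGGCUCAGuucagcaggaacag
miR-130b-3p: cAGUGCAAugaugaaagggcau
miR-100-5p: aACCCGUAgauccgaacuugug

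Seeds recurred across joined loci. The let-7 seed GAGGUAG was held by 5 joined loci, the miR-15 and miR-16 seed AGCAGCA by 3, and the miR-125 seed CCCUGAG by 3. A pair of loci shared miR-24-3p, whose identical mature sequence is encoded in the Mir23a, Mir24-2, Mir27a locus and in the Mir23b, Mir27b, Mir24-1 locus.

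The 3 promoter stretches below are the 100 bases before the RefSeq start of genes in joined interferon loci, 5′ to 3′ on the gene's own strand. Their positions in GRCm38.p6 are chr5:120907526-120907625 for Oas1a, chr5:120887614-120887713 for Oas1g and chr1:173880188-173880287 for Mndal, all on the minus strand. Capitals mark matches to GAAA, any 2 bases and GAAA again, the core of the interferon-stimulated response element that interferon regulatory factors bind. Oas1a and Oas1g each hold 2 overlapping matches and Mndal holds 1.
Oas1a: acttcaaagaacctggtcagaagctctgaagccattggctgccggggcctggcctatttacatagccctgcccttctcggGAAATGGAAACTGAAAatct
Oas1g: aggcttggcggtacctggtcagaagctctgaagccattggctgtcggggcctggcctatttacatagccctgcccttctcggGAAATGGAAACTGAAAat
Mndal: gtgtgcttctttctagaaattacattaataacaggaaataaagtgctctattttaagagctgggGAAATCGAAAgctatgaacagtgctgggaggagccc

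The Oas1a and Oas1g stretches were identical at 91 of 98 aligned bases (92.9%). Their transcribed sequences were not compared. Over windows of 250 bases before the start, searched on both strands, this pattern was found in 978 of 32851 RefSeq promoters (2.98%). It was found in 30 of 1411 promoter windows of genes in joined loci (2.13%) and in 6 of 22 windows of the MHC and interferon loci (27.3%). The 6 windows belonged to Mndal, which has 2 of them, Ifi203, Oas1g, Oas1a and H2-T22. The letters TGACAG, bound by Meis and Prep proteins, was in 13.0% of windows of joined loci and 15.9% of all promoters, and in 2 of 13 windows of the TALE and Hox loci. The AP-1 letters TGANTCA were in 5.32% of windows of joined loci and 6.75% of all, in 5 of 22 windows of the MHC and interferon loci (22.7%) and in none of 13 of the TALE and Hox loci. Motifs and stretches were chosen after the levels were seen, and a match is a description of letters only.

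As to the libraries, the upper quartile of single-gene loci ranged from 9.63 FPKM in MP to 429 FPKM in M, with 157 in EV, 11.6 in P and 12.2 in WT. Levels are therefore given in scaled units, FPKM after setting that quartile to 10 in each library, and differences as log2((level + 1)/(level + 1)), which understates changes of low loci. Read depth is unknown. Of 13 fibroblast markers, 11 were at 5 scaled units or more in every library, while 4 of 4 endothelial, 4 of 4 muscle, 5 of 6 epithelial and 3 of 6 immune markers stayed under 1 in every library. Nes, Tubb3 and Map2, listed as neural markers, were at 5 or more throughout. Meis1 levels were 16.8 (M), 15.4 (MP), 12.4 (WT), 8.86 (P) and 8.32 (EV) scaled units, as labelled. Pknox1 levels were 11.02 (WT), 3.25 (M) and 2.16 (EV) but 0.554 in P and 0.569 in MP, which goes against those labels, so P and MP stand throughout for the libraries labelled P and MP.

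Joining mostly linked a pair of genes. Of the 911 loci, 764 joined 2 symbols, 112 joined 3, 20 joined 4 and 7 joined 5, and the few larger ones reached 34 and 37. The 2 largest were the protocadherin alpha and gamma cluster (37 symbols), whose neuronal adhesion proteins are made from alternative first exons spliced to shared exons, and Mirg (34 symbols), the miRNA host of the imprinted Dlk1-Dio3 region. By names alone, 384 loci (42.2%) were pairs of named genes and 36 (3.95%) clusters of 3 or more of them. A further 210 (23.1%) held a predicted or clone name, 182 (20.0%) a small RNA name, 96 (10.5%) paralogs and 3 (0.329%) an antisense name. Small RNA names were told by their first letters, so any symbol beginning with Mir, such as Mira, was counted.

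Placed in a newer annotation (GENCODE M21), 690 of the 764 pairs had both symbols at a single place, and 643 of these (93.2%) lay on the same strand. In 472 of the 643 the genes were apart, in 114 one gene lay inside the other, and in 57 they overlapped in part. Among 514 pairs of protein-coding genes, 485 (94.4%) were on the same strand, against 52.4% of all 21872 neighbouring pairs of coding genes, and 406 of 512 on 1 chromosome (79.3%) were direct neighbours. An example is Cdkn2a, Cdkn2b, the neighbouring cell-cycle inhibitors. Pairs of a coding gene with a miRNA numbered 60, pairs with a snoRNA 23 and pairs with a pseudogene 21.

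The remaining pairs do not sit as joined transcripts of a single strand would. Opposite strands were annotated for 38 pairs, such as Igf2r and Airn, whose antisense transcript overlaps it head to head. Different chromosomes were annotated for 9 pairs, 6 of which pair a gene with a predicted gene or pseudogene name: Rpl34 with Rpl34-ps1, Apoo with Apoo-ps, Rpl30 with Gm12191, Hnrnpa1 with Gm5643, Hnrnpa3 with Gm6793, and Ubald2 with Gm7367. The strand comparison was added after the data were seen, and the annotation is not that of the deposited tables.

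Most genes in these loci had no other locus. The joined names held 1982 different symbols, of which 1813 (91.5%) appeared in no single-gene locus, among them Actb, Cdkn2a, Atf4, Mcm2, Axl, H2-D1, Hoxa5, Hoxa9 and Oas1a. Cd68, a macrophage marker, was read only in the locus Eif4a1, Senp3, Cd68, at 26.9 scaled units (EV), 23.4 (M), 19.7 (P), 24.1 (MP) and 18.2 (WT). Eif4a1 encodes a translation initiation factor made in most cells, and among the 6 immune markers this joined value was the only 1 at 5 or more in every library.

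Another 169 symbols had both a joined and a single-gene locus. The joined locus was the higher for 143 of them, with a median of the mean level of 13.0 scaled units against 2.33. For 49 of these symbols both loci reached 5 units in some library, and the 2 loci seldom passed 2-fold together. In WT against EV, 4 of the joined and 5 of the single-gene loci were 2-fold apart, and in 1 symbol both were, in the same direction. In P against EV the counts were 3, 2 and 0.

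Joined loci stood high (see the plot of levels by library). A joined level is a sum over the transcripts of several genes, and bridging by reads needs transcribed genes. Levels and shares at 0 are therefore not independent of the joining. Their median was 14.0 scaled units (EV), 13.1 (M), 13.2 (P), 13.1 (MP) and 12.7 (WT), where single-gene loci had medians between 0.863 in MP and 1.52 in WT. Between 62.3% (MP) and 65.8% (WT) of joined loci were at 10 units or more, against 24.4% of single-gene loci, a share that the scaling fixes at the same value in each library. A level of 0 was listed for 0.99% of joined loci in EV, 1.32% (M), 5.49% (P), 5.05% (MP) and 6.70% (WT). For single-gene loci these shares were 2.41%, 9.33%, 23.9%, 26.7% and 21.6%.

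Loci with more names, whose level is a sum over the transcripts of more genes, stood higher. Loci of 2 symbols had a median of 13.5 scaled units in EV and 12.3 in WT, those of 3 symbols 18.1 and 16.7, and those of 4 or more 24.0 and 18.7. By class, clusters of named genes were highest, at medians of 25.2 in EV and 23.2 in WT, and pairs of named genes followed at 16.8 and 14.8. Paralog loci (7.43 and 8.43) and loci with predicted or clone names (7.24 and 8.09) were lowest among the larger classes. Loci made of miRNA symbols alone, 24 in all, had medians between 0.729 in MP and 1.09 in M. The 111 that joined a symbol beginning with Mir to another gene had medians between 11.1 in WT and 12.1 in M.

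**Figure D1:**
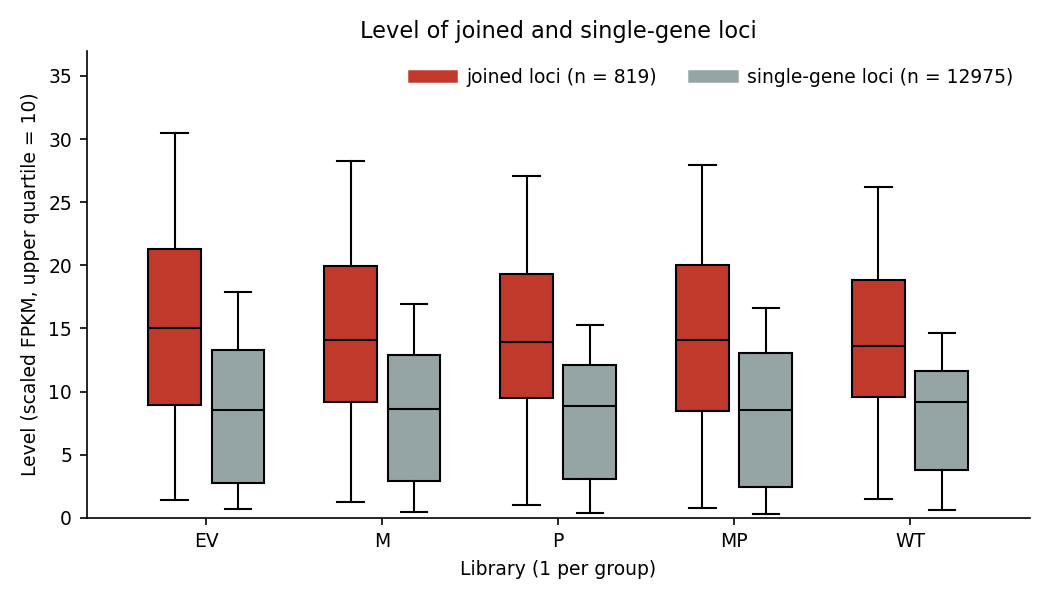
Level in scaled FPKM (upper quartile of single-gene loci = 10) of loci at 1 unit or more in any library, for the 5 libraries. Boxes give the quartiles and median, whiskers the 5th and 95th percentiles over loci and not over replicates; joined loci (819) lie above single-gene loci (12975) in every library, with medians of 15.0 against 8.55 in EV and 13.6 against 9.14 in WT.

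The highest joined loci carried histones, snoRNAs and housekeeping genes. Hist1h2bc, Hist1h1d, Hist1h4h, Hist1h4d, Hist1h4b, a group of replication-dependent histone genes, had the highest mean level, at 61.9 scaled units (EV), 54.9 (M), 43.8 (P), 47.3 (MP) and 39.6 (WT). The snoRNA locus Snord49b, Snord65, Snord49a, 2410006H16Rik stood between 41.5 in P and 51.2 in WT and was the highest joined locus in MP and WT. B3gnt2, Commd1, an enzyme of glycan synthesis joined to a regulator of copper handling, stood between 34.3 in WT and 44.9 in MP. Axl, Ccdc97, Hnrnpul1, which includes the receptor tyrosine kinase Axl, stood between 33.7 in WT and 46.0 in EV.

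Few joined loci differed 2-fold between libraries, counting loci at 1 scaled unit or more in 1 of the 2. In WT against EV, 23 of 815 were higher (2.82%) and 27 lower (3.31%), with a median difference of -0.13. The background was 6.02% of single-gene loci higher and 3.38% lower, with a median of -0.05, and 2.57% and 47% over all loci. The share higher was thus below that of single-gene loci and the share lower near it. With the median in place of the upper quartile as scale, the split was 13 higher and 55 lower, and with a minimum of 5 units it was 14 and 10.

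In P against EV, 4 of 800 joined loci were higher (0.5%) and 14 lower (1.75%), against 0.638% and 2.06% of single-gene loci and 0.281% and 47.8% of all loci. In MP against EV, 1 of 799 was higher (0.125%) and 22 lower (2.75%), against 0.207% and 2.35% of single-gene loci and 0.0826% and 48.5% of all. In M against EV, 3 of 802 were higher (0.374%) and none lower, against 0.295% and 0.731% of single-gene loci and 0.245% and 13.6% of all. Many of the lower loci were at low levels: 12 of the 14 lower in P and 13 of the 22 lower in MP stood between 1 and 2 units in EV. Krt6a, Krt85, Krt82, keratins of epidermis and hair, stood at 1.62 in EV and 0.0224 in P. At a minimum of 5 units the counts were 1 higher and 1 lower in P and to none and 6 in MP. EV also listed the fewest loci at 0, as given above; the part of this in the counts was not tested.

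Few joined loci were 2-fold apart in pairs not involving EV as well. Over all loci, the share lower in WT against P and MP against P was far smaller than the 47% to 48.5% of P, MP and WT against EV. In WT against P, 20 of 796 joined loci were higher (2.51%) and 10 lower (1.26%), against 6.13% and 1.85% of single-gene loci and 5.98% and 1.83% of all. MP against M had none of 784 higher and 8 lower, against 0.22% and 1.39% of single-gene loci and 0.366% and 25.2% of all. MP against P had none of 777 higher and 9 lower, against 0.255% and 0.868% of single-gene loci and 0.253% and 2.55% of all.

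The authors' own calls went almost all one way within each table's joined loci. In the authors' deposited table for M, 116 of 283 joined loci with test status OK (41.0%) were marked higher and none lower, against 18.04% and 0.0539% of single-gene loci and 4.08% and 4.49% of all loci. For P, the authors' deposited table marked none higher and 590 of 596 lower, against 0.00892% and 98.9% of all loci. For MP, the authors' deposited table marked none higher and 579 of 583 lower, against 0.00314% and 99.1%. In the authors' deposited table for WT, 2 of 608 were marked higher and 594 lower, against 0.0576% and 97.4%. The status was FAIL for 544 joined loci in the M table, 228 in P, 230 in MP and 230 in WT.

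**Figure D2:**
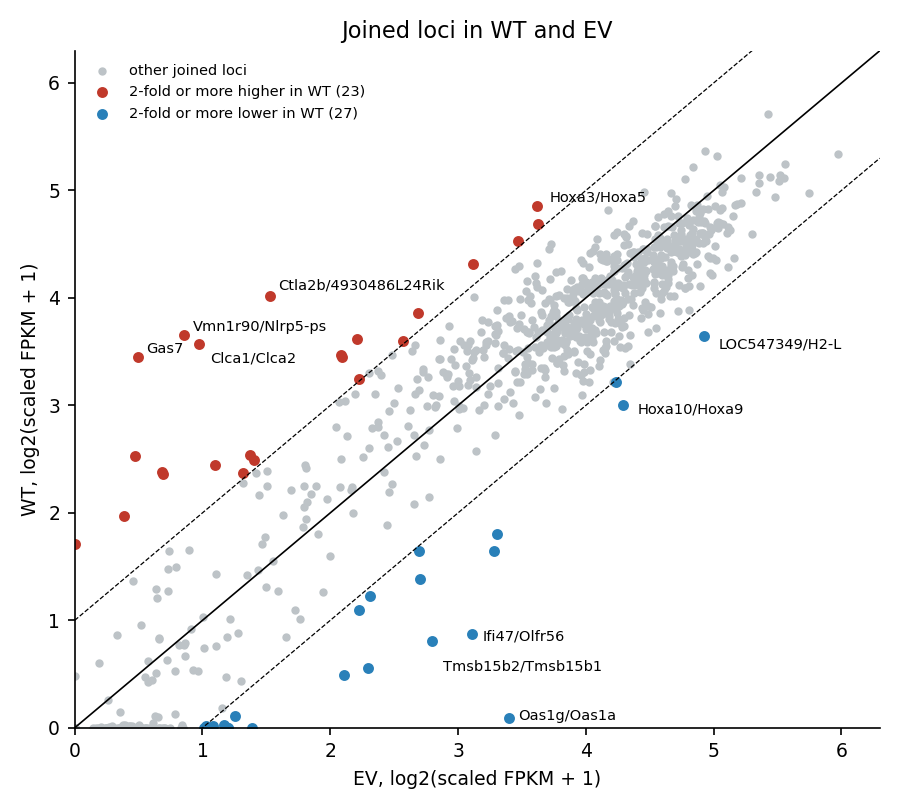
Level of each joined locus in EV (x axis) and WT (y axis), as log2(scaled FPKM + 1); the solid line marks equal levels and the dashed lines a 2-fold difference. Red points are the 23 loci higher in WT and blue points the 27 lower; Oas1g, Oas1a lies at the bottom with 9.57 units in EV and 0.0686 in WT.

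Interferon-response genes made up the 2 largest differences below EV in WT. The 2 oligoadenylate synthetases Oas1g and Oas1a, which sense foreign RNA and activate its cleavage, formed a single locus. Its level was 9.57 scaled units (EV), 5.19 (M), 5.02 (P), 2.20 (MP) and 0.0686 (WT). EV was highest and WT close to 0, a log2 difference of -3.31 for WT, -1.73 for MP, -0.81 for P and -0.77 for M.

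Ifi47, Olfr56 joins an interferon-induced GTPase of pathogen defence with an olfactory receptor gene. Its levels were 7.65 (EV), 5.39 (M), 4.97 (P), 3.71 (MP) and 0.828 (WT), so that WT was again lowest (-2.24 against EV). Ifi27l2a, Ifi27l2b, both interferon-inducible, stood at 8.88 (EV), 6.47 (M), 4.56 (P), 3.42 (MP) and 2.49 (WT) (-1.50). Ifi203, Mndal, members of the family of interferon-inducible DNA sensors, ran differently: 8.95 (EV), 6.10 (M), 5.01 (P), 3.28 (MP) and 6.98 (WT). There MP was the lowest (-1.22 against EV), and WT differed from EV by -0.32. In bulk RNA, fewer cells making a transcript and less of it per cell cannot be told apart.

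The antigen-presenting class I genes were joined as well. LOC547349, H2-L, H2-D1 stood at 29.4 scaled units (EV), 20.5 (M), 14.4 (P), 15.8 (MP) and 11.5 (WT), a difference of -1.28 for WT and -0.97 for P. H2-T10, H2-T22, H2-T9, non-classical class I genes, stood at 23.2, 20.8, 15.4, 18.5 and 16.5 in the same order. Tapbp, Rgl2, Zbtb22, with the chaperone tapasin that loads class I molecules, was level at 32.2, 29.5, 31.0, 30.9 and 32.2. Irf9, Rnf31, with the DNA-binding part of the interferon-activated complex, moved little, from 14.3 in EV to 11.5 in WT. The class I loci and the Oas1 locus join related gene copies, whose transcribed sequences were not compared. The handling of reads that match several copies is not known.

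Over the 11 MHC and interferon loci, 4 were 2-fold lower in WT, 3 in MP and none in P or M, and none was higher in any of the 4. Over all joined loci, 3.31% were 2-fold lower in WT and 2.75% in MP. The count below EV was 11 of 11 in all 4 libraries, where 64.2% (M), 61.4% (P), 70.1% (MP) and 62.7% (WT) of all joined loci lay below. The 4 comparisons share the EV library. Their medians were -0.28 (M), -0.53 (P), -0.33 (MP) and -0.32 (WT), against -0.06, -0.08, -0.10 and -0.13 over all joined loci. Relative to single-gene loci the medians stayed below 0 under each of the 4 scalings tried. A scaling multiplies a whole library by a constant, which cancels in this measure but for the 1 added to each level. This agreement was therefore largely fixed in advance. The 11 loci were not compared with other loci of like level.

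**Figure D3:**
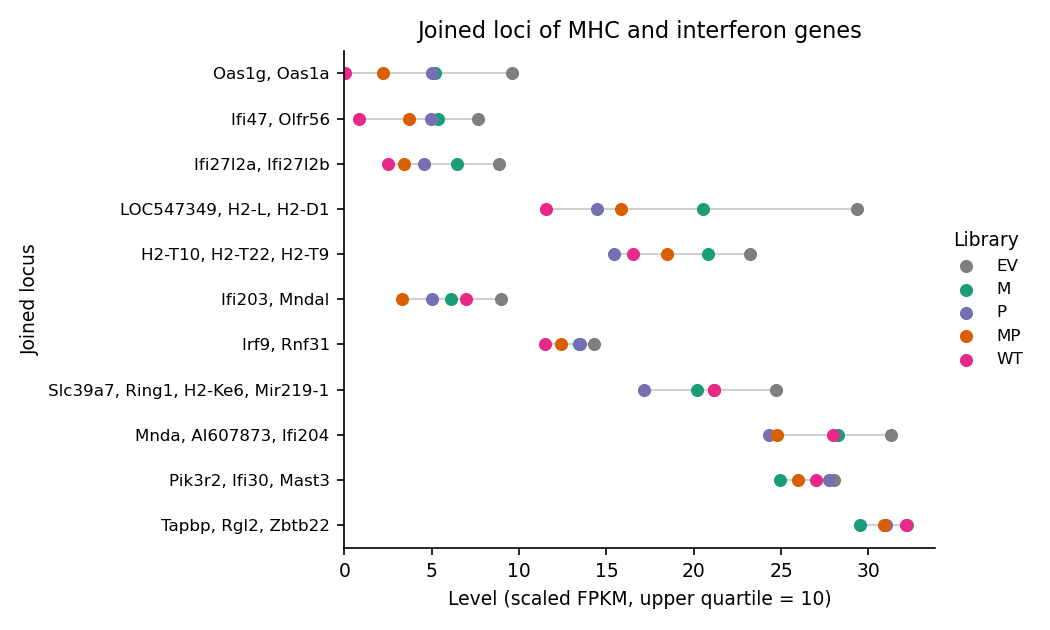
Level in scaled FPKM of the 11 joined loci that hold an MHC or interferon-related symbol, 1 point per library. EV is the highest point at each of the 11 loci, and the 5 libraries spread most at LOC547349, H2-L, H2-D1 (11.5 to 29.4).

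Hox genes, the partners of Meis and Prep proteins, specify position along the body axis and lie in clusters, and 7 joined loci that hold them are described here. The 2 parts of the Hoxa cluster differed in opposite directions in WT. Hoxa3, Hoxa5, Hoxa6, towards the 3′ end of the cluster, stood at 11.3 scaled units (EV), 14.6 (M), 17.7 (P), 14.0 (MP) and 27.9 (WT). The WT level was the highest by far, at 1.24 above EV on the log2 scale. Hoxa10, Hoxa9, Mir196b, further towards the 5′ end of the cluster, stood at 18.5 (EV), 20.0 (M), 20.5 (P), 18.8 (MP) and 7.02 (WT). Here WT alone was low (-1.28), and the 4 hypomorphic libraries lay between 18.5 and 20.5.

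Hoxa7, Mira, which lies between them in the cluster, stood at 9.61 in EV and 12.7 in WT (0.37), not 2-fold apart. In the Hoxb cluster, Hoxb3, Hoxb4, Hoxb2, Mir10a and Hoxb5, Hoxb6 differed between WT and EV by 0.22 and 0.10, and Hoxb9, Hoxb7, Hoxb8, Mir196a-1, Gm53 by -0.35. Hoxc10, Hoxc6, Hoxc4, Hoxc5 was high everywhere, from 31.5 in M to 40.4 in P.

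With Ager, Pbx2, which includes another kind of TALE gene, the TALE and Hox list had 9 loci, of which 1 was 2-fold higher and 1 lower in WT, beside 2.82% and 3.31% of all joined loci. In M, P and MP none of the 9 was 2-fold apart from EV. The median was 0.22 in WT and 0.16 in P, -0.03 in M and -0.13 in MP. Relative to single-gene loci the WT median was positive under 3 scalings and negative (-0.34) on the values as deposited, and so was the P median (-0.34).

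**Figure D4:**
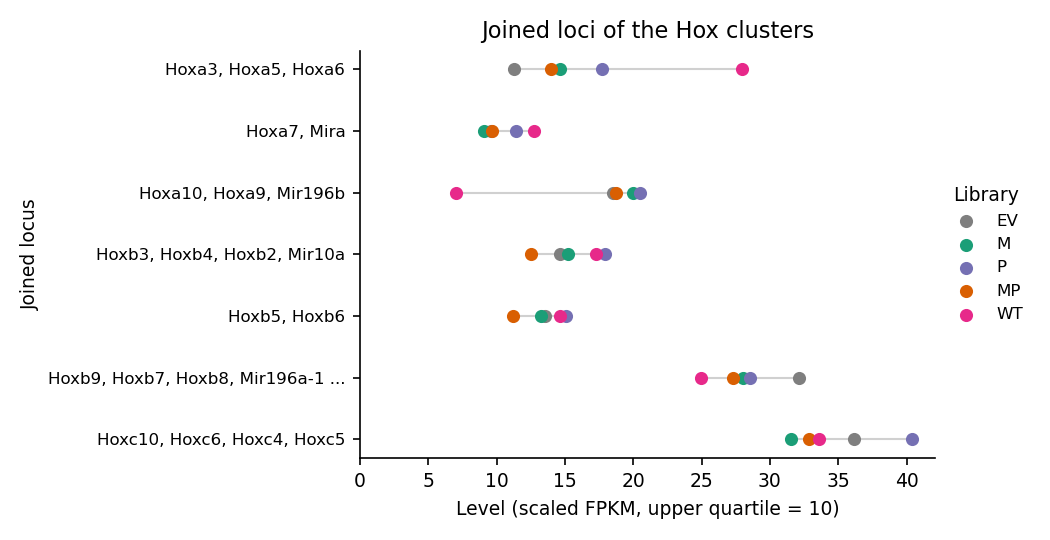
Level in scaled FPKM of 7 joined loci with Hox symbols, 1 point per library, ordered within each cluster. WT lies at the high end for Hoxa3, Hoxa5, Hoxa6 (27.9) and at the low end for Hoxa10, Hoxa9, Mir196b (7.02), while the other 4 libraries lie closer together.

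A symbol beginning with Mir was part of 135 joined loci, a rule that also takes in Hoxa7, Mira. In WT against EV 3 of 118 kept were higher (2.54%) and 4 lower (3.39%), with a median of -0.07. These shares were near the 2.82% and 3.31% of all joined loci. The miR-17 to miR-92 host Mir17hg, whose sequences are printed above, is known to promote cell proliferation. It stood at 12.7 scaled units (EV), 12.2 (M), 12.2 (P), 7.93 (MP) and 9.52 (WT), so MP was the lowest (-0.62). The Mir23a, Mir24-2, Mir27a locus stood at 4.58 (EV), 4.095 (M), 8.28 (P), 7.35 (MP) and 10.1 (WT). P, MP and WT were high there and EV and M low, with WT at 0.99 above EV. The partner cluster with Mir23b, Mir27b and Mir24-1 stood at 5.61 in EV and 8.90 in WT (0.58), so both sources of miR-24-3p were higher in WT.

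Other miRNA hosts differed in one or more libraries. 2610203C20Rik, Mirlet7a-2, Mir100 stood at 3.26 (EV), 3.66 (M), 4.04 (P), 1.90 (MP) and 9.91 (WT) (1.36). Its neighbour 2610203C20Rik, Mir125b-1 was level, between 9.81 in MP and 12.7 in P. 2610318N02Rik, Mir130b stood at 3.92 (EV), 4.16 (M), 5.74 (P), 4.09 (MP) and 0.470 (WT) (-1.74). Mir145, Mir143, Mir143hg, a marker of smooth-muscle-like cells, stood at 8.11 (EV), 9.36 (M), 13.8 (P), 6.12 (MP) and 12.9 (WT). The RNA measured at these loci is the primary transcript or its fragments as sequenced here, and mature miRNA was not measured.

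M was the highest library at several of them. Dleu2, Mir15a, Mir16-1, the tumour-suppressor miRNA locus, stood at 11.8 in M and between 7.06 and 8.99 elsewhere. Mir29b-1, Mir29a, 2210408F21Rik, whose miRNAs repress collagens, stood at 12.1 in M and between 7.62 and 10.1 elsewhere. In M against EV these were 0.66 and 0.48, neither of them 2-fold.

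**Figure D5:**
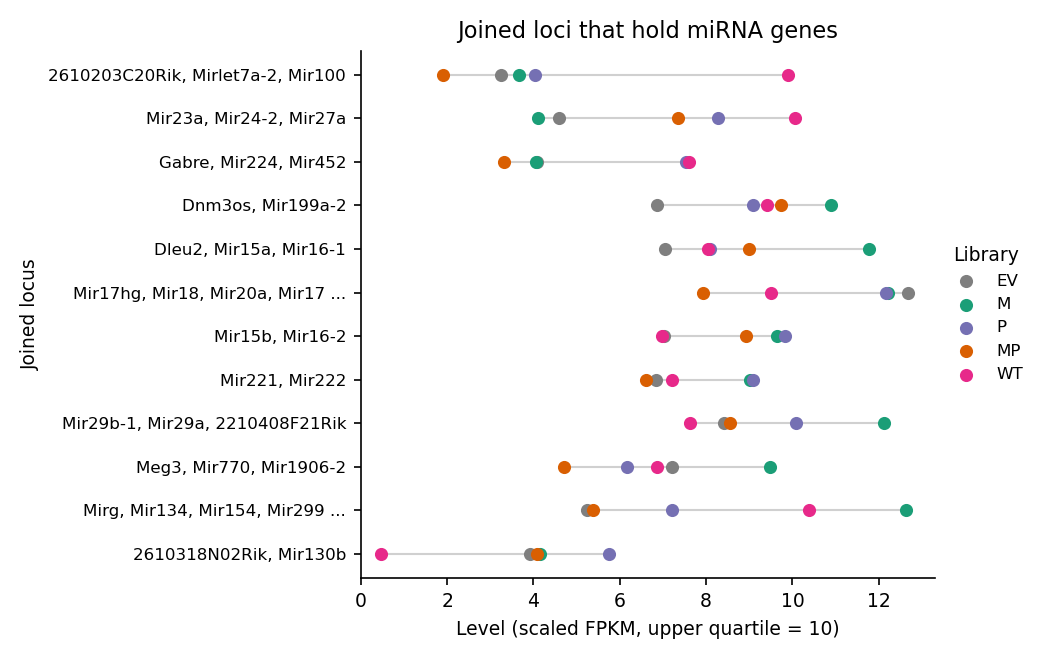
Level in scaled FPKM of 12 joined loci that hold miRNA genes, 1 point per library. WT is highest for 2610203C20Rik, Mirlet7a-2, Mir100 (9.91) and lowest for 2610318N02Rik, Mir130b (0.470), and M is highest for Mirg (12.6) and Meg3 (9.47).

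Imprinted genes are expressed from 1 parental copy. The maternally expressed non-coding RNAs of the Dlk1-Dio3 region, Meg3, Rian and Mirg, each formed a joined locus with small RNAs. Mirg stood at 5.24 scaled units (EV), 12.6 (M), 7.22 (P), 5.37 (MP) and 10.4 (WT). It was 2-fold higher in M than in EV (1.13) and 2-fold lower in MP than in M (-1.10). Meg3, Mir770, Mir1906-2 stood at 7.21 (EV), 9.47 (M), 6.17 (P), 4.72 (MP) and 6.87 (WT), and Rian, AF357359, Mir882 at 13.3, 17.9, 11.4, 14.1 and 11.002. M was the highest library for all 3, and only Mirg passed 2-fold. The 3 lie in 1 region and are not independent.

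Of the other imprinted loci, Igf2r, Airn, the receptor that clears Igf2 and its antisense regulator, stood at 17.0 in EV and 13.5 in WT, not 2-fold apart. The separate Airn locus stood at 5.72 (EV), 5.73 (M), 7.58 (P), 4.06 (MP) and 11.02 (WT), with WT at 0.84 above EV. Snrpn, Snurf stood between 5.19 and 6.77. Nespas, Mir296, Mir298 stood at 3.34 in EV and 7.21 in WT (0.92).

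Of the 7 histone loci, 7 were below EV in MP and 6 in WT, where 70.1% and 62.7% of all joined loci lay below. The medians were -0.45 and -0.44, against -0.10 and -0.13 over all joined loci, and 1 locus passed 2-fold. This was Hist2h3c2, Hist2h2ac, Hist2h2aa2, at 18.1 (EV), 10.7 (M), 20.0 (P), 5.44 (MP) and 18.4 (WT) (-1.57 for MP against EV and -1.70 for MP against P). MP and M were low there and the other 3 alike. The linker histone locus Hist1h1b, Hist1h3i stood at 33.6 in EV and between 18.5 and 22.0 in the other 4. Relative to single-gene loci the histone medians were below 0 in all 4 comparisons with EV under each scaling, which was again largely fixed in advance. The histone loci were not compared with other loci of like level.

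Loci of ribosomal and respiratory genes numbered 47. Among them the number below EV was 41 (M), 37 (P), 43 (MP) and 41 (WT), which is 87.2%, 78.7%, 91.5% and 87.2%, beside 64.2%, 61.4%, 70.1% and 62.7% of all joined loci. The medians were -0.28, -0.20, -0.25 and -0.33, against -0.06, -0.08, -0.10 and -0.13 over all joined loci, and none was 2-fold apart. Rps2, Snora64 (15.3 in EV and 8.33 in WT) and Rps15, Apc2 (14.7 and 7.56) were the furthest. Over single-gene loci at 1 unit or more in any library, the upper quartile was 13.3 (EV), 12.9 (M), 12.1 (P), 13.1 (MP) and 11.6 (WT). Their median ran the other way, at 8.55 in EV and between 8.58 and 9.14 elsewhere. High loci thus lay below EV more broadly. The part of this in the 47 loci was not tested, as the list was not compared with loci of like level. The 29 snoRNA host loci, which overlap this list, had 22 (M), 17 (P), 24 (MP) and 22 (WT) below EV, with medians of -0.22, -0.13, -0.15 and -0.31. In P this was 58.6%, under the 61.4% of all joined loci. Some stood above EV: Gas5, Snord47, Mir5117, a growth-arrest transcript, stood at 24.4 in EV and 30.5 in WT, and Snhg12 with its snoRNAs at 27.6 and 36.3.

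Of the 7 cell-cycle loci none was 2-fold apart from EV. The number below EV was 6 (M), 7 (P), 6 (MP) and 6 (WT), beside the shares of 61.4% to 70.1% over all joined loci. Other loci of like level were not compared here either. Cdkn2a, Cdkn2b, encoding the inhibitors that limit the growth of cultured fibroblasts, stood at 33.6 (EV), 32.2 (M), 24.6 (P), 24.5 (MP) and 24.3 (WT). P, MP and WT were alike and EV and M higher, with differences from EV of -0.44 in P, -0.44 in MP and -0.45 in WT. Cdkn2b alone, at a separate single-gene locus, stood at 5.52 (EV), 8.35 (M), 6.28 (P), 6.02 (MP) and 8.03 (WT). EV was lowest there, with differences of 0.52 (M), 0.16 (P), 0.11 (MP) and 0.47 (WT), opposite in sign to the joined locus.

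None of the 10 loci on the matrix and cytoskeleton list was 2-fold apart from EV in any of the 4 comparisons. Tubulins are not on that list: Tuba1a, Tuba1b, alpha-tubulins, stood at 17.8 (EV), 10.3 (M), 8.67 (P), 11.6 (MP) and 8.28 (WT), which was 2-fold lower in WT (-1.02). The separate Tuba1a locus was level, from 6.20 in EV to 6.55 in WT. Mmp14, Mrpl52, with the membrane-bound collagenase, was the highest of the 10, at 33.4 in EV and 23.3 in WT. Fbxl18, Actb, the only locus naming beta-actin, stood at 13.4 in EV and between 11.01 and 12.5 elsewhere. The protocadherin alpha and gamma locus stood at 29.6 (EV), 24.0 (M), 21.5 (P), 21.6 (MP) and 40.3 (WT), the highest in WT but at 0.43 not 2-fold.

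In all, 3 joined loci were at 5 units or more in WT and under 1 in each of the other 4 libraries (0.329%, against 0.419% of single-gene loci), a rule set after the data were seen. Gas7, NA, a cytoskeletal regulator joined to a name that reads NA, stood at 9.92 in WT and between 0.119 and 0.406 elsewhere. Vmn1r90, Nlrp5-ps, a pheromone receptor gene and a pseudogene, stood at 11.6 in WT, and Clca1, Clca2, chloride channel regulators of epithelia, at 10.9. Ctla2b, 4930486L24Rik, which holds an inhibitor of cathepsin proteases, stood at 15.2 in WT and between 1.21 and 2.34 elsewhere. The reverse held for Tmsb15b2, Tmsb15b1, Tmsb15l, thymosins that bind actin, at 0.748 in WT and between 5.96 and 7.58 elsewhere (0.110% of joined loci, against 0.109% of single-gene loci).

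Several secreted and signalling genes were among the loci higher in WT. Igfbp6, Soat2, which joins an Igf2-binding protein to a cholesterol-esterifying enzyme, stood at 3.62 (EV), 1.97 (M), 5.45 (P), 2.79 (MP) and 11.3 (WT) (1.41). Il11ra1, Galt, the interleukin-11 receptor with a galactose enzyme, stood at 5.42, 4.44, 9.95, 7.38 and 13.5. Egfl7, Fam69b, with a secreted vessel factor, stood at 11.3, 11.3, 20.1, 15.2 and 24.8. In these 3 loci P was the second highest library after WT. The haemoglobin loci Hba-a2, Hba-a1, found at 2 loci under 1 name, and Hbb-b1, Hbb-b2 reached 2.93, 1.59 and 2.27 in WT, and were at 0.370 or less elsewhere.

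The fibroblast markers also differed in WT. Their summed level was 130 scaled units in WT and between 143 and 167 in the other 4 libraries, with Pdgfra at 11.8 in WT and 2.56 in EV, and Postn at 5.43 and 13.5. None of the 13 was listed at 0 in any library. The part of such a difference in the WT results was not tested.

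Serpina3f, Serpina3g, serine protease inhibitors that respond to inflammatory signals, stood at 1.83 (EV), 7.42 (M), 1.75 (P), 4.21 (MP) and 4.23 (WT). M was the highest (1.57 above EV), and MP and WT lay between M and EV. The other 2 loci 2-fold higher in M were Mirg, given above, and Mirlet7d, Mirlet7a-1, Mirlet7f-1, which stood at 0 in EV and 1.12 in M. Prl2c3, Prl2c4, proliferin-type hormones, stood at 3.67 (EV), 6.07 (M), 7.27 (P), 6.11 (MP) and 8.49 (WT), EV being lowest.

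Brca1, Rdm1 was the only joined locus at 5 units or more that was 2-fold higher in P than in EV. Both are genes of DNA repair by recombination, annotated head to head on opposite strands in GENCODE M21. The joined locus stood at 6.25 (EV), 6.79 (M), 14.4 (P), 6.26 (MP) and 4.67 (WT), with P alone high (1.09). Both genes also had single-gene loci, and those were level. Brca1 alone stood at 13.0 (EV), 12.9 (M), 11.8 (P), 12.9 (MP) and 11.3 (WT), and Rdm1 alone at 14.0, 16.0, 15.9, 14.7 and 13.3.

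A similar split was seen for Cdk11b. The joined locus Cdk11b, Gm16023, which holds a kinase of RNA processing, stood at 5.49 (EV), 3.11 (M), 2.02 (P), 1.30 (MP) and 2.13 (WT), and was 2-fold lower in P (-1.10), MP (-1.50) and WT (-1.05). Cdk11b alone stood at 12.2, 10.99, 11.6, 9.96 and 11.4. For 9930111J21Rik2, by contrast, the joined and the single-gene locus were both lowest in WT, at 1.61 and 3.39, and highest in EV, at 5.50 and 11.6.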

How the data were processed

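Total RNA was sequenced from 5 libraries of mouse embryonic fibroblasts, 1 per group. The authors deposited 4 tables that set M, P, MP and WT each against EV over 61082 loci, with FPKM values per library, a test status and a q-value per locus. TopHat, Cufflinks, Cuffdiff and mm9 are named in the submitters' processing notes. Versions, annotation, filters, strand and the treatment of shared reads are not given in the sources used here, and the unit FPKM is that which Cuffdiff writes, since the deposited column headers name only values. The authors' calls are the significance marks in the deposited tables, among loci of status OK.

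Each library was scaled so that the upper quartile was 10 over 22338 single-gene loci that reached 1 FPKM somewhere. EV was taken from the M table, because its values in the other tables differed by factors of 1.10, 0.972 and 1.12. Loci at 1 scaled unit or more in 1 of 2 libraries were compared by log2 ratio with a pseudocount of 1, and a ratio of 2-fold was used as the threshold. With no replicates and no counts, no p-value or counting interval was computed. The calculation was tested on simulated data.

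The joined loci and the 14 gene lists were chosen with earlier results of these data known, as were the rules for naming loci. Named were the 8 highest and 8 lowest loci against EV, and 5 and 5 in other pairs, among loci at 5 units or more, leaving out those in which each symbol ends in Rik or begins with LOC, Mir, Snor, n-R or a numbered Gm. Named also were the 5 loci with most symbols, the 8 highest levels, the 3 highest per class, and list members. Locus width was not used, as the tables give no coordinates. Loci outside the rule (Krt6a, the haemoglobins and pairs named for their strands) were chosen after their values were seen. Strand relations came from GENCODE M21 and sequences from RefSeq, both GRCm38 and not the mm9 of the tables, so no coordinates were transferred. Promoters were found for 1165 of 1982 symbols. Python 3.11.15, pandas 2.3.3, numpy 2.4.6 and matplotlib 3.10.9 were used. Some loci of the lists are counted but not reported singly here.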

Additional observations from a re-analysis of the deposited data

How the results depend on the processing

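Another scaling moves whole libraries, so the median of single-gene loci is given first. As deposited it was 1.28 (M), -3.20 (P), -3.49 (MP) and -3.05 (WT) against EV. Scaled to the median it was 0.34 for MP and -0.35 for WT against EV, and with the upper quartile over all loci 0.21, 0.82, 1.34 and 0.62.

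On the values as deposited, the joined loci 2-fold apart numbered 776 (M), 902 (P), 902 (MP) and 894 (WT) against EV, 893 for MP against M and 24 for MP against P, with medians of 1.35, -3.71, -3.98, -3.71, -5.36 and -0.25. With the upper quartile over all loci the counts were 221 (P), 716 (MP) and 165 (WT) against EV and 653 for MP against M. The medians were 0.16 (M), 0.83 (P), 1.34 (MP), 0.57 (WT), 1.20 (MP against M), 0.53 (MP against P) and -0.24 (WT against P). Scaled to the median, the medians were 0.31 (MP) and -0.45 (WT) against EV, 0.33 (MP against M), 0.37 (MP against P) and -0.40 (WT against P), and MP against P had 5 loci apart. These move with the whole-library shift.

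With a minimum of 5 units, which leaves fewer loci, 2 (P), 6 (MP) and 24 (WT) loci were apart from EV, 1 in MP against M and 16 in WT against P. With a pseudocount of 0.1 they were 14 (M), 36 (MP) and 76 (WT), and 22 in MP against P. Among loci of status OK they were 1 (M), 4 (MP against M) and 16 (WT against P), and without small RNA loci 1 (M), 3 (MP against M) and 4 (MP against P).

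Of 94 values of named loci, 89 kept their direction and their side of the 2-fold threshold with the pseudocount of 0.1, and 85 with median scaling. The size of the shift was not part of that count. As deposited, 7 of the values that were 2-fold apart in the main scaling changed sign. They were Brca1, Rdm1 in P (-2.49), and in WT Clca1, Clca2 (-0.19), Ctla2b, 4930486L24Rik (-0.65), Fam160a1, Glt28d2 (-1.98), Gm13152, Gm13139, Znf41-ps (-2.34), Hoxa3, Hoxa5, Hoxa6 (-2.35) and Igfbp6, Soat2 (-1.97). The shift of all single-gene loci was -3.20 in P and -3.05 in WT. Another 51 values crossed the 2-fold threshold or, where under 2-fold before, changed sign. No paired analysis was possible because each group holds 1 library, and no library could be left out. Depth is unknown, so low levels have no error.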

Other observations

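Names were not unique among joined loci. In all, 18 joined names were carried by more than 1 locus, 53 loci in total, and for none of the 18 did all its loci list the same 5 values. Mir669a-2, Mir669a-1 named 9 loci, with 2 different sets of values among them, and Gm10486, Gm14819 named 8 loci, each with its own values. In 9 loci one of the joined names read NA, among them Gas7, NA.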
